A study of Saccharomyces cerevisiae with 15 samples.

Results

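The intermediate phase of the nitrogen downshift (N-downshift) of Saccharomyces cerevisiae was described from 5 of the 15 arrays of the series, namely those labelled 10 and 14 min, both from bioreactor culture BY013, and those labelled 7 min, 1 from each of the cultures BY013, BY009 and BY010. The arrays were chosen by their labelled times, so that no measured value entered the choice. All cultures were the prototrophic wild-type strain YSBN6, which was grown in batch on glucose minimal medium with glutamine and proline, and times refer to the disappearance of glutamine from the medium. No culture without a downshift was among the 15 arrays, and the 7 min arrays, which serve as the reference here, had themselves passed the shift. Because 10 and 14 min were sampled only in BY013, the comparison with all 3 arrays at 7 min was set beside a comparison within BY013 alone.

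Glutamine is a preferred nitrogen source of yeast and proline is a poor one. On glutamine, the kinase complex TORC1 is active and promotes ribosome production, while nitrogen catabolite repression (NCR) keeps genes for the use of poor sources low by holding back the GATA activators Gln3 and Gat1. When TORC1 activity falls, repressors of ribosome biogenesis genes are released, the stress factors Msn2 and Msn4 and the kinase Rim15 act, and storage carbohydrates, autophagy and respiration genes are turned up.

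Each array gave 1 intensity per probe set, a group of short oligonucleotides for 1 transcript, and 5498 probe sets for a single S. cerevisiae gene were used. The summed intensity of all probe sets was 23037714, 22691203 and 23265907 at 7 min, 23145885 at 10 min and 23618074 at 14 min, and the small number of arrays sets the precision. Transcripts were tested with limma on log2 intensities. A transcript passed where its limma p, corrected over the 5498 probe sets by the Benjamini-Hochberg method, was under 0.05. As 10 and 14 min have 1 array each, they were assumed to vary as the times with 3 cultures do, where the median standard deviation (SD) at 7 min was 0.057 on the log2 scale. A probe set was taken as dim at or under an intensity of 68.1, which 95% of the probe sets for Schizosaccharomyces pombe on the same arrays did not exceed. Markers of cell types were summed as a check of the cells sampled. All 7 MATa-specific markers lay above that level in the 5 arrays, 3 of them (STE6, BAR1 and AGA2) were called lower, and their summed intensity was 68551 to 70385 at 7 min, 66655 at 10 min and 66306 at 14 min. For 4 MATalpha-specific markers the sum was 1663 to 1785, 1842 and 1901, 3 lay above the level in all 5 arrays and 1 (STE3) was called higher. Of 11 meiotic markers, 10 of them above the level in all 5 arrays, whose sum was 4158 to 4834 at 7 min, 5230 at 10 min and 5520 at 14 min, 5 were called higher at 10 and 14 min, and the part of these cell types in the results below was not tested. As RNA came from whole cultures, fewer cells of a kind and less RNA per cell cannot be told apart.

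The 10 and 14 min arrays lay between the 7 and 24 min arrays on the course of the downshift. To place each array, the change from −10 to 24 min was taken as an axis from cultures BY009 and BY010 only. The position of an array along it was expressed as the percentage of the way. Here −10 min is a label. By the paper's supplement these samples were taken earlier than that in all 3 cultures, at times that differed between them. The 7 min arrays stood at 18.9% in BY009, 25.3% in BY010 and 30.5% in BY013. The 10 min array stood at 50.1% and the 14 min array at 75.6%, and the 24 min array of BY013, at 98.8%, lay almost at the end. Culture BY013 was thus further along at 7 min than the other cultures. In its 7 min array 155 transcripts lay over 2-fold away from the mean at −10 min, against 86 in BY010 and 24 in BY009. In the comparison with all 3 arrays at 7 min, time therefore cannot be fully told apart from culture. Changes within BY013 are thus given beside the main values. Within BY013 only 1 array at 7 min enters, and at 10 min alone 1 array is set against 1. Fewer transcripts can then pass at the same size of change. A call lost within BY013 therefore does not show that the change is absent there.

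**Figure D1:**
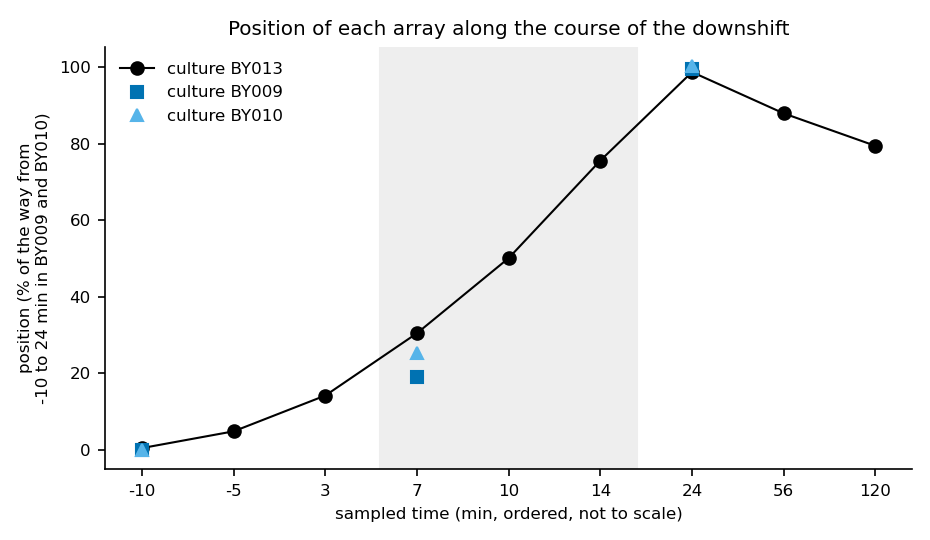
Position of each of the 15 arrays (y axis, % of the way from −10 to 24 min as measured in cultures BY009 and BY010) at each sampled time (x axis, min, in order but not to scale), with the times described here shaded. The 10 and 14 min arrays stood at 50.1% and 75.6%, and the 3 arrays at 7 min lay between 18.9% and 30.5%.

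At 10 and 14 min, 2824 of 5498 transcripts (51.4%) differed from 7 min, 1668 (30.3%) being higher and 1156 (21.0%) lower. The larger changes were mostly falls. Of the 221 transcripts (4.02%) that passed and differed by more than 2-fold, 172 (3.13%) were lower and 49 higher. Both arrays lay above all 3 arrays at 7 min for 2058 transcripts (37.4%) and below all of them for 1682 (30.6%). Within BY013, 1605 transcripts (29.2%) passed, 890 (16.2%) higher and 715 (13%) lower. With the culture as a block in the fit to all times, 22.8% were called higher and 17.6% lower. Every one of the 2824 transcripts kept its sign within BY013 and 1601 passed there too, but 1461 of the 1668 rises and 1058 of the 1156 falls were smaller in that comparison. The median change of the transcripts that passed was 0.28 on the log2 scale for rises and −0.31 for falls, and 0.24 and −0.26 within BY013. Over all 5498 transcripts the median was 0.039.

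The count of changed transcripts differed between the intermediate arrays. At 10 min alone 1251 transcripts (22.8%) differed from 7 min, 590 (10.7%) being higher and 661 (12%) lower, and at 14 min alone 3032 (55.1%) did. With the culture as a block in the fit, 747 passed at 10 min, 301 (5.47%) higher and 446 (8.11%) lower, and within BY013 478 (8.69%), 150 (2.73%) higher and 328 (5.97%) lower. Between 10 and 14 min of the same culture 734 transcripts (13.4%) differed, 312 (5.67%) higher and 422 (7.68%) lower at 14 min. The intensity at 14 min lay beyond that at 10 min in 1639 of the 1668 rises and in 1091 of the 1156 falls. Accordingly, without the 14 min array the count of changed transcripts at the intermediate phase was 1250, and without the 10 min array 3031.

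Among the 12 probe sets with the largest rises were genes of storage carbohydrate control, nitrogen scavenging and stationary phase. GAC1, which encodes a subunit that directs the Glc7 phosphatase to glycogen synthase, had intensities of 124, 82.7 and 114 at 7 min, 323 at 10 min and 808 at 14 min (here and below, values at 7 min are for BY013, BY009 and BY010 in that order, and values in parentheses after a gene are log2 changes from 7 min to the mean of 10 and 14 min). Both later arrays were above every array at 7 min, with a change of 2.28 on the log2 scale (SE 0.18, limma adjusted p = 1.1e-06) and 2.04 within BY013. YNL194C, encoding a plasma membrane protein of the Sur7 family, stood at 653, 402 and 474 at 7 min, 1457 at 10 min and 2949 at 14 min, a log2 change of 2.05 (1.67 within BY013). SPG4, named for a requirement in stationary phase, stood at 307, 258 and 322 at 7 min, 676 at 10 min and 1567 at 14 min (1.81, 1.75 within BY013). UGA4, the permease for the nitrogen source GABA, stood at 1595, 955 and 1541 at 7 min, 3144 at 10 min and 6298 at 14 min, with a change of 1.74 on the log2 scale (SE 0.17, limma adjusted p = 5.07e-06). None of these groups overlapped, which the rule for choosing the 12 required. In each of the 4 genes the step from 10 to 14 min was itself called. The log2 differences were 1.32 for GAC1, 1.02 for YNL194C, 1.21 for SPG4 and 1.00 for UGA4. GIP2, another Glc7 regulatory subunit, rose by 1.63 and HXT5, a hexose transporter of slowly growing cells, by 1.47 on the log2 scale. The reticulon-like gene RTN2 rose by 1.49 and the zinc finger gene LEE1 by 1.47. The other transcripts of this set were YMR206W (1.62), YNL195C (1.43) and YGR174W-A, for which a pair of probe sets gave 1.58 and 1.57.

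Most of the 12 largest falls as measured were factors that build ribosomes, and the 4 that were dim at 14 min have only a bound and no rank. SSF1, needed for maturation of the large subunit RNA, stood at 672, 1030.2 and 789 at 7 min, 236 at 10 min and 62 at 14 min. As the 14 min value lay under the background level, its fall was at least 6.45-fold (adjusted p = 7.01e-07 from limma). BFR2, a component of the small subunit processome, stood at 1091, 1707 and 1301 at 7 min, 464 at 10 min and 158 at 14 min, a change of −2.31 on the log2 scale (SE 0.17, limma adjusted p = 8.22e-07) and −2.01 within BY013. The nucleolar GTPase genes NOG2 and NOG1 changed by −2.28 and −2.13. A further 3 act on the 60S particle or its export, namely RSA4 (−2.17), NOC2 (−2.16) and REI1 (−2.12). SYO1, which imports the ribosomal proteins Rpl5 and Rpl11 into the nucleus, changed by −2.23, and NSR1, the yeast nucleolin, by −2.11. Dim at 14 min were also RRP36, a small subunit factor (at least 3.88-fold lower, limma adjusted p = 7.01e-07), JJJ3, which acts in diphthamide synthesis on elongation factor 2 (at least 3.5-fold, adjusted p = 1.56e-05), and the unnamed gene YGL188C-A (at least 2.05-fold, adjusted p = 2.82e-05, and not called when only the 5 arrays entered the fit). The rule for choosing the 12 required that the 10 and 14 min arrays lie below every array at 7 min.

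**Figure D2:**
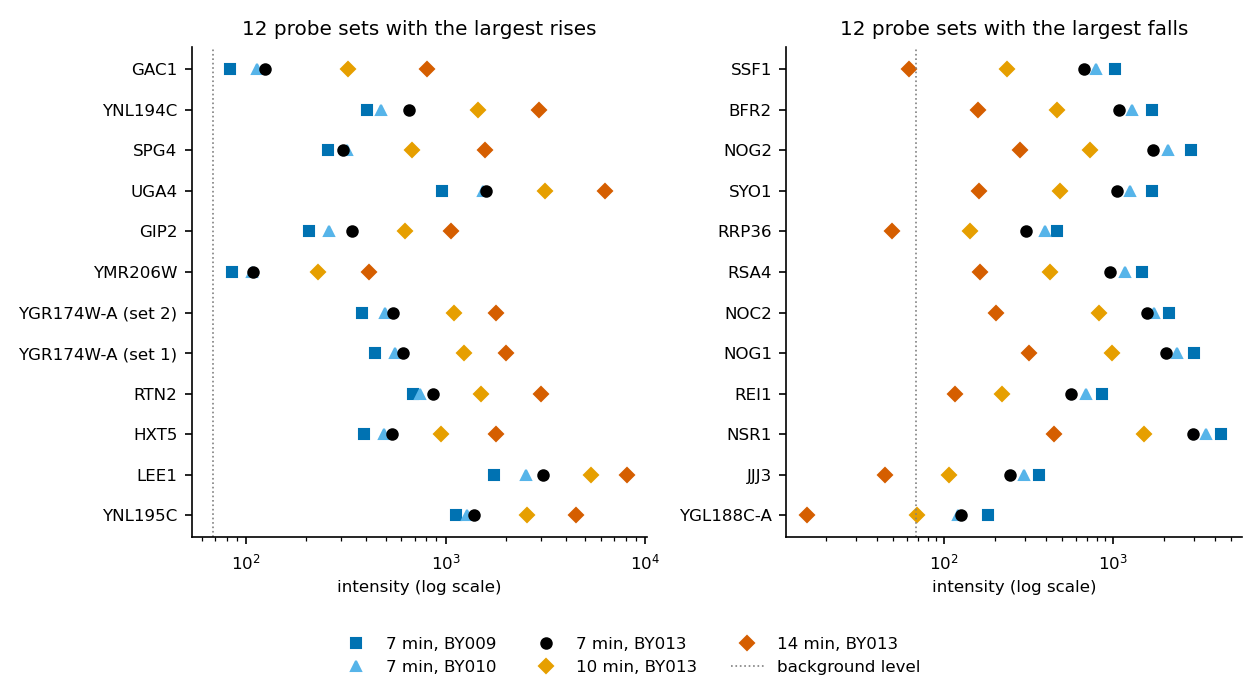
Intensities (log x axis) of the 12 probe sets with the largest rises (left) and the 12 with the largest measured falls (right) in each of the 5 arrays, 1 point per array, with the background level of 68.1 as a dotted line. The rule for choosing the rows required that the 10 and 14 min points lie on the same side of all 3 points at 7 min. In every row the 14 min point is the farther one.

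Ribosome assembly factors fell together. All 75 measured factors of the small subunit processome and 40S assembly were called lower at 10 and 14 min, 50 of them by more than 2-fold, and all 75 were called lower within BY013. Their median change was −1.32 on the log2 scale (−1.16 within BY013), against 0.039 over all transcripts. Per array, the median against the mean of the 3 arrays at 7 min was −0.18, 0.17 and 0.0087 at 7 min, −0.83 at 10 min and −1.81 at 14 min. A further fall followed between 10 and 14 min, where the median difference was −0.89 and 67 of the 75 were called lower at 14 min. Of 78 factors for 60S assembly and export, 76 were called lower (median −1.24, −1.10 within BY013), and 69 fell further between 10 and 14 min.

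RNA polymerases I and III make ribosomal and transfer RNA. Of 35 genes for their subunits and factors 23 were called lower and 2 higher (median −0.69). RRN11, a subunit of the polymerase I core factor, stood at 342, 476 and 393 at 7 min, 162 at 10 min and 101 at 14 min, with a change of −1.65 on the log2 scale (SE 0.13, limma adjusted p = 1.45e-06). The polymerase I subunit genes RPA49, RPA12 and RPA34 fell by 1.47, 1.42 and 1.35 on the log2 scale. Of 36 enzymes that modify tRNA 30 were called lower and 0 higher (median −0.61). TRM11, a subunit of a tRNA guanosine methyltransferase, changed by −2.02 and by −1.72 between 10 and 14 min alone, and TRM2, the tRNA uracil methyltransferase, by −1.69.

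Ribosomal protein transcripts changed by less in measured intensity. Their median intensity at 7 min was 18800, against 1600 and 2250 for the small and large subunit assembly lists. Whether so bright a signal narrows the measured change was not tested. Of 127 genes for cytosolic ribosomal proteins 21 were called lower and 0 higher, with a median of −0.097, and 106 did not pass. With the culture as a block 9 were called lower, after quantile normalization 14, within BY013 6, at 10 min alone 3 and at 10 min within BY013 2. The 10 and 14 min arrays nevertheless lay below all 3 arrays at 7 min for 107 of the 127, where the share over all transcripts was 30.6%. Only RPL22B, the minor paralogue for Rpl22, fell by more than 2-fold, with intensities of 5057, 6249.5 and 5319 at 7 min, 3275 at 10 min and 1743 at 14 min and a change of −1.21 on the log2 scale (SE 0.07, limma adjusted p = 4.06e-07). RPS9A, a minor paralogue too, stood at 5937, 6717 and 6368 at 7 min, 4381 at 10 min and 2327 at 14 min (−0.99, −0.89 within BY013). For the 68 genes of mitochondrial ribosomal proteins the median was 0.052, close to that of all transcripts, and 11 were called higher and 2 lower (3 and 0 with the culture as a block, 1 and 1 at 10 min alone, 0 and 0 at 10 min within BY013).

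Translation and the supply of its substrates moved by smaller amounts. Of 36 translation factors 27 were called lower and 2 higher (median −0.20), 13 were lower at 10 min alone and 4 at 10 min within BY013. NIP1, a subunit of initiation factor 3, stood at 4867, 5503 and 5175 at 7 min, 3903 at 10 min and 2521 at 14 min (−0.72). Of 18 cytosolic tRNA synthetases 15 were called lower (median −0.13), but 5 were within BY013, 2 at 10 min alone and 0 at 10 min within BY013. Purine synthesis had 20 of 23 genes lower and 1 higher (median −0.25), with 12 lower at 10 min alone and 6 at 10 min within BY013. Its largest change was that of AAH1, the adenine deaminase, which stood at 2092, 2772 and 2425 at 7 min, 1221 at 10 min and 559 at 14 min with a change of −1.55 on the log2 scale (SE 0.10, limma adjusted p = 5.28e-07). IMD4, an IMP dehydrogenase, fell by 0.90 and ADE4, for the first step of the pathway, by 0.56 on the log2 scale. In the pyrimidine pathway 12 of 19 genes were lower and 3 higher (7 and 2 at 10 min alone, 3 and 0 at 10 min within BY013). URA7 and URA8 encode the CTP synthases and went in opposite directions. URA7 stood at 2886, 3843 and 3336 at 7 min, 1748 at 10 min and 675 at 14 min (−1.62). In contrast, URA8, added after its values had been seen, stood at 4818, 4458 and 4715 at 7 min, 5539 at 10 min and 6851 at 14 min, with a change of 0.40 on the log2 scale (SE 0.05, limma adjusted p = 2.48e-05). FUR4, the uracil permease, fell by 1.17.

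Among genes under the amino acid control factor Gcn4, 30 of 49 were called lower and 3 higher (median −0.13), against 10 and 0 at 10 min alone and 3 and 0 at 10 min within BY013. LEU9, a minor isopropylmalate synthase, fell by 0.76 and HOM3, the aspartate kinase, by 0.63 on the log2 scale. Sulfate assimilation and methionine genes were lower in 18 of 24 cases and higher in 1 (median −0.21). At 10 min alone the median was −0.16, with −0.14 for the culture as a block and −0.12 within BY013. Fewer of these genes passed at 10 min with the block and within BY013. MUP1, the high-affinity methionine permease, stood at 1908, 2627 and 2056 at 7 min, 1084 at 10 min and 512 at 14 min, a change of −1.55 on the log2 scale (SE 0.13, limma adjusted p = 2.36e-06) and −1.36 within BY013. MET8, a siroheme synthase needed by sulfite reductase, stood at 1387, 1809 and 1783 at 7 min, 922 at 10 min and 696 at 14 min (−1.04, −0.79 within BY013).

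Genes for the use of poor nitrogen sources were higher at 10 and 14 than at 7 min. Of 9 genes for allantoin and urea use 8 were called higher and 0 lower, where 30.3% of all transcripts were higher, with a median of 0.33. At 10 min alone the median was 0.26, with 0.25 for the culture as a block and 0.19 within BY013. Fewer of these genes passed at 10 min with the block and within BY013. DAL4, the allantoin permease, stood at 8636, 6028 and 7948 at 7 min, 12203 at 10 min and 14704 at 14 min with a change of 0.85 on the log2 scale (SE 0.12, limma adjusted p = 9.56e-05). DUR3, the urea transporter, stood at 5466, 3945 and 5185 at 7 min, 7057 at 10 min and 8941 at 14 min (0.72), and DAL2, the allantoicase, rose by 0.55. In all 3 the later arrays lay above those at 7 min. Of 12 genes for proline, GABA and arginine use 8 were called higher and 0 lower (median 0.39, 0.15 at 10 min within BY013). Apart from UGA4 these included the GABA shunt enzymes UGA1 (0.67) and UGA2 (0.68) and GDH2, the glutamate dehydrogenase that releases ammonium (0.57). PUT1 and PUT2, which convert the remaining nitrogen source proline to glutamate, were added after their values had been seen. PUT2 stood at 14327, 12796 and 13868 at 7 min, 15526 at 10 min and 17082 at 14 min, with a change of 0.25 on the log2 scale (SE 0.04, limma adjusted p = 0.000355). PUT1 stood at 21871, 20637 and 20878 at 7 min, 22442 at 10 min and 22960 at 14 min, and its call, a change of 0.10 on the log2 scale (SE 0.03, limma adjusted p = 0.00816), was lost with the culture as a block and without the 14 min array.

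Ammonium and glutamate metabolism was split. GDH3, the minor NADP-dependent glutamate dehydrogenase, rose by 0.81 and GLT1, glutamate synthase, by 0.28 on the log2 scale. Of the 11 genes of the group 7 were called higher and 2 lower, but 4 and 1 with the culture as a block, 3 and 0 at 10 min alone and 0 and 0 at 10 min within BY013. The 23 amino acid permeases were split as well, with 10 higher and 7 lower. Their median, 0.098, was 0.022 with dim arrays set to the background level and changed sign after quantile normalization (−0.0031). The oligopeptide transporter gene OPT2 (0.96) and DIP5, for the acidic amino acid permease (0.83), were higher. In contrast, AGP1, the broad-specificity permease induced through the Ssy1 sensor, stood at 1011, 1179 and 1175 at 7 min, 701 at 10 min and 513 at 14 min, a change of −0.90 on the log2 scale (SE 0.11, limma adjusted p = 4.22e-05), and the glutamine permease gene GNP1 at 2044, 2379 and 2103 at 7 min, 1537 at 10 min and 990.1 at 14 min (−0.82), which was chosen after its values had been seen.

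Among the nitrogen regulators themselves 5 of 14 were called higher and 3 lower, near the shares over all transcripts (30.3% and 21.0%). At 10 min alone the 4 rises became 1 with the culture as a block and 0 within BY013. GLN3 stood at 975, 967 and 993 at 7 min, 856 at 10 min and 822 at 14 min, and its call, a change of −0.22 on the log2 scale (SE 0.06, limma adjusted p = 0.0121), was lost with the culture as a block. GAT1, at 11673, 10872 and 11621 at 7 min, 11973 at 10 min and 11850 at 14 min, did not pass (0.066, adjusted p = 0.142 from limma), and neither did GZF3 (0.15). DAL80, the GATA repressor that NCR itself controls, rose by 0.37 (adjusted p = 0.000314 from limma), and VID30, which has been linked to nitrogen metabolism and to the degradation of gluconeogenic enzymes, by 0.53. ASI1 (0.20) and ASI2 (0.38), which keep the amino acid sensor's transcription factors inactive, rose as well. NPR1 (0.17), URE2 (−0.19) and STP1 (−0.21) passed, but, like GLN3, not without the 14 min array. PTR3, SSY5, STP2 and ASI3 did not pass, with changes between −0.029 and 0.10.

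Of 27 genes for TORC1 and its effectors 8 were called higher and 2 lower (median 0.045), where over all transcripts 30.3% were higher and 21.0% lower with a median of 0.039. The counts were 4 and 1 with the culture as a block, 2 and 1 at 10 min alone and 0 and 0 at 10 min within BY013. PPH3, the catalytic subunit of a type 2A-like phosphatase, stood at 1299.9, 1459 and 1426 at 7 min, 1049 at 10 min and 909 at 14 min, a change of −0.51 on the log2 scale (SE 0.07, limma adjusted p = 5.32e-05) and −0.41 within BY013. NPR2, a subunit of the SEACIT complex that restrains TORC1, stood at 2431, 2118 and 2294 at 7 min, 2746 at 10 min and 3318 at 14 min (0.41), and RRD2, a phosphatase activator, rose by 0.34. TOR1 and IML1, the latter of SEACIT too, had changes of 0.21 and 0.30 that passed, but not without the 14 min array. TOR2, KOG1, LST8, TCO89, SIT4, TIP41, both PPH21 and PPH22, GTR1, GTR2, SEA4, SEH1, SEC13, RTC1, MTC5, VAM6 and YPK3 did not pass, with changes between −0.14 and 0.12. TAP42 (0.23), RRD1 (0.19), SLM4 (0.12), NPR3 (0.12) and MEH1 (−0.12) passed in the main comparison and were lost with the culture as a block.

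In the Ras and protein kinase A pathway, which promotes growth on glucose, 8 of 17 genes were called higher and 2 lower (4 and 2 at 10 min alone, 1 and 0 at 10 min within BY013). TPK2 and TPK3, which encode catalytic subunits of the kinase, went in opposite directions. TPK2 stood at 3977, 3295 and 3902 at 7 min, 4901 at 10 min and 5864 at 14 min (0.53), whereas TPK3 stood at 1488, 1391 and 1493 at 7 min, 1179 at 10 min and 928 at 14 min (−0.48). In neither gene did the groups overlap. RAS1 fell by 0.50 (adjusted p = 6.34e-06 from limma), and YAK1, a kinase that protein kinase A opposes, rose by 0.53.

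Of 13 regulators of ribosomal genes, 3 were called higher and 3 lower, shares near those of all transcripts. TOD6, a repressor that binds the PAC motif of ribosome biogenesis genes, stood at 174, 306 and 214 at 7 min, 88.5 at 10 min and 45.9 at 14 min. With dim arrays set to the background level it was at least 2.9-fold lower (limma adjusted p = 1.18e-05). IFH1, the coactivator at ribosomal protein genes, stood at 1073, 1322 and 1218 at 7 min, 757 at 10 min and 631 at 14 min (−0.80), and CRF1, described as its competing corepressor, stood at 153, 142 and 139 at 7 min, 192 at 10 min and 211 at 14 min (0.48). These 3 genes passed within BY013 as well. DOT6 (0.08), the paralogue of TOD6, did not pass, and neither did SFP1 (−0.045), FHL1 (−0.0043), SCH9 (−0.0051), RAP1 (−0.057), HMO1 (0.057) and RPD3 (0.07). STB3 (0.20) and MRS6 (−0.19) passed but were lost without the 14 min array, as was UME6 (0.12), which the block removed too.

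Among 48 regulators of stress and carbon responses 26 were called higher and 6 lower (median 0.16), against 13 and 4 at 10 min alone and 5 and 2 at 10 min within BY013. USV1 stood at 1309.9, 944 and 1005 at 7 min, 2194 at 10 min and 3106 at 14 min, with a change of 1.28 on the log2 scale (SE 0.12, limma adjusted p = 3.49e-06), and MGA1, a heat shock factor relative linked to filamentous growth, at 89.3, 73.1 and 91 at 7 min, 145 at 10 min and 179 at 14 min (0.94). XBP1, a repressor of cyclin genes in stressed cells, rose by 0.91, CAT8, an activator of gluconeogenic genes, by 0.89, and GSM1 by 0.83. MSN4 stood at 1549, 1339 and 1292 at 7 min, 2072 at 10 min and 2602 at 14 min (0.74), whereas MSN2 did not pass, with 2992, 2936 and 3073 at 7 min, 3134 at 10 min and 3330.3 at 14 min (0.11, adjusted p = 0.0625 from limma). GIS1, which acts downstream of Rim15, rose by 0.59, and RIM15 had 0.25 and was lost with the culture as a block. HAP4, the regulatory subunit of the respiratory activator, had 0.38 in the main comparison and did not pass within BY013 (0.21, limma adjusted p = 0.132). Lower were ROX1 (−0.43), a repressor of hypoxic genes, GCR1 (−0.38), an activator of glycolytic genes, and SOK2 (−0.30), which did not pass within BY013. Further rises were those of NRG1 (0.41) and MIG1 (0.27), repressors of glucose-repressed genes, and RPN4 (0.23), the activator of proteasome genes, and TEC1 (−0.33), a factor of filamentous growth, was lower. NRG2 (0.23) passed, but not without the 10 min array. SIP4 (0.57), YAP6 (0.47), CAD1 (0.25), RPH1 (0.19), SKO1 (0.14), MIG2 (−0.29) and MIG3 (−0.33) passed, but not without the 14 min array. The same held for ADR1 (0.31), PIP2 (0.19), OAF1 (0.18), MSS11 (0.16), HSF1 (0.16), IGO1 (0.10), IGO2 (0.15) and RIM15, which were lost with the culture as a block too. The other 15, namely COM2, HOT1, YAP1, YAP5, YAP7, HAC1, PDR1, PDR3, PHD1, HAL9, RDS2, EDS1, TYE7, RTG1 and RTG3, did not pass, with changes between −0.16 and 0.30.

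Stress genes under Msn2 and Msn4 rose almost without exception, with 35 of 36 higher at 10 and 14 min, 34 within BY013, 32 at 10 min alone and 23 at 10 min within BY013. Their median was 0.75 on the log2 scale. Per array, it was 0.11, −0.15 and 0.018 at 7 min, 0.54 at 10 min and 0.92 at 14 min. Much of the rise was thus in place at 10 min, and 16 of the 36 were called higher at 14 than at 10 min. CTT1, the cytosolic catalase, stood at 4379, 3171 and 3686 at 7 min, 7245 at 10 min and 11075 at 14 min, a change of 1.27 on the log2 scale (SE 0.10, limma adjusted p = 1.5e-06). DCS2, a regulator of the m7G cap scavenging enzyme, rose by 1.26.

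The enzymes of trehalose and glycogen rose with them, 21 of 22 being higher (median 0.70, 0.54 within BY013). GPH1, glycogen phosphorylase, stood at 3810.3, 2860.0 and 3035 at 7 min, 6192 at 10 min and 10031 at 14 min, with a change of 1.30 on the log2 scale (SE 0.10, limma adjusted p = 1.35e-06), and GDB1, the debranching enzyme, at 1827, 1494 and 1666 at 7 min, 2787 at 10 min and 4839 at 14 min (1.15). Genes for the breakdown of glycogen thus rose together with GAC1 and GIP2. Of 21 stationary phase genes 14 were higher and 0 lower (median 0.41). In 15 of the 21 both later arrays lay above all arrays at 7 min, against 37.4% of all transcripts. In 2 they lay below all of them without being called, against 30.6% of all transcripts. FMP45, the paralogue of YNL194C, rose by 1.07. Over all transcripts 30.3% were called higher, 10.7% at 10 min alone and 2.73% at 10 min within BY013. For chaperones and heat shock proteins the median was 0.083, against 0.039 over all transcripts. Of 33 chaperones and heat shock proteins 15 were higher and 2 lower (9 and 0 at 10 min alone, 1 and 0 at 10 min within BY013), among them HSP42 (0.82), SSA4 (0.65) and SSE2 (0.55), and 17 of 29 antioxidant genes were higher and 3 lower (8 and 0 at 10 min alone, 3 and 0 at 10 min within BY013), among them the peroxidase genes TSA2 (0.75) and GPX1 (0.75).

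**Figure D3:**
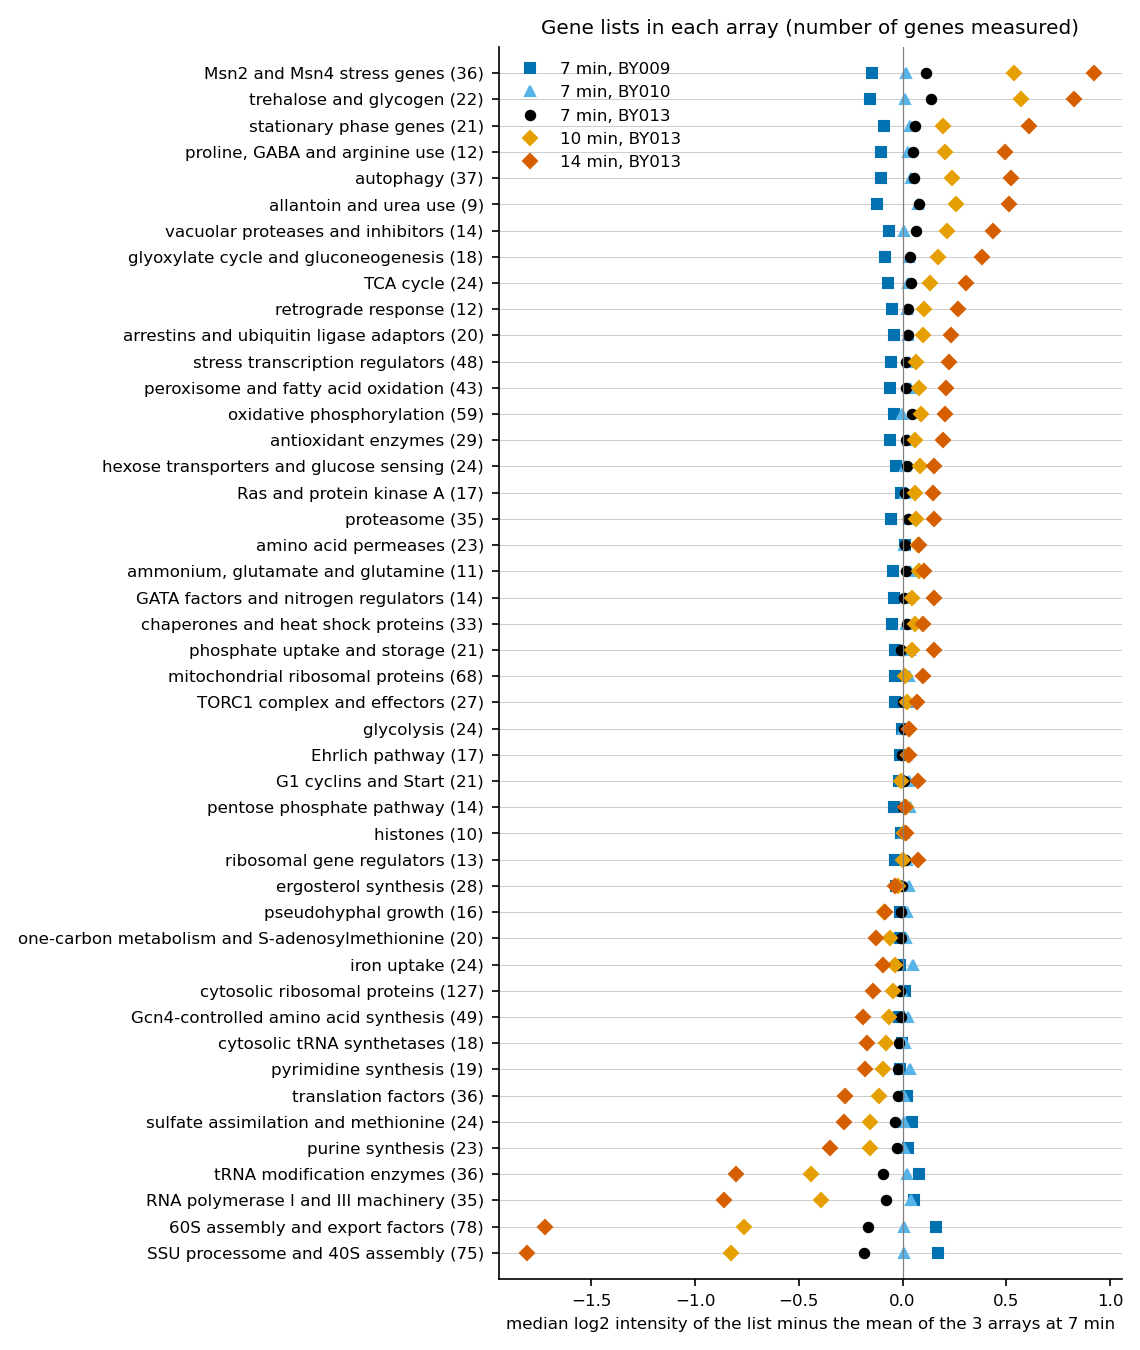
Median log2 intensity of each of the 46 gene lists minus the mean of the 3 arrays at 7 min (x axis), in each of the 5 arrays (1 point per array), with the number of genes measured in parentheses. The 2 ribosome assembly lists reach −1.81 and −1.72 at 14 min, the Msn2 and Msn4 list 0.92, and in these 3 lists BY009 and BY013 lie on opposite sides of 0 at 7 min.

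Genes for the recycling of cell material were mostly higher. Of 37 autophagy genes 27 were called higher and 2 lower (median 0.38, 0.33 within BY013), and at 10 min alone 18 were higher, 10 with the culture as a block and 2 within BY013. ATG39, a receptor for autophagy of the nuclear envelope, stood at 1927, 1461 and 1783 at 7 min, 2883 at 10 min and 3938 at 14 min (0.98), and ATG14, a subunit of the autophagy-specific lipid kinase complex, rose by 0.74. ATG8, the protein that is coupled to the growing membrane, stood at 4775, 3726 and 4416 at 7 min, 5766 at 10 min and 6918 at 14 min, with a change of 0.56 on the log2 scale (SE 0.08, limma adjusted p = 0.000102), and was added after its values had been seen. In contrast, ATG41 was lower, at 2037, 2999.9 and 2352 at 7 min, 1402 at 10 min and 1073 at 14 min (−0.99, −0.73 within BY013). Of 14 vacuolar proteases and their inhibitors 13 were higher (median 0.33), 8 at 10 min alone and 4 at 10 min within BY013, and 10 of the 14 were higher at 14 than at 10 min. AMS1, which encodes the vacuolar mannosidase and not a protease, rose by 0.98 and PAI3, the inhibitor of proteinase A, by 0.97. The 35 proteasome genes gave 24 calls, all higher, but the median change was 0.11, 12 passed with the culture as a block, 8 after quantile normalization, 4 within BY013, 1 at 10 min alone and 0 at 10 min within BY013. RFU1, which inhibits a deubiquitinating enzyme of endosomes, stood at 638, 1002 and 782 at 7 min, 358 at 10 min and 350.4 at 14 min, a fall of 1.16 on the log2 scale.

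Respiratory and gluconeogenic transcripts rose as well. Of 24 tricarboxylic acid (TCA) cycle genes 18 were called higher and 1 lower (median 0.22), with 10 higher at 10 min alone, where 5 were with the culture as a block and 2 within BY013. Of 59 genes for oxidative phosphorylation 41 were higher and 1 lower (median 0.15), with 19 higher within BY013. At 10 min alone 14 were higher, 8 with the culture as a block and 3 within BY013. For the glyoxylate cycle and gluconeogenesis the counts were 11 and 0 of 18 (median 0.27), with 6 higher at 10 min alone and 3 at 10 min within BY013. MLS1, malate synthase, stood at 308, 249 and 322 at 7 min, 494 at 10 min and 953 at 14 min, with a change of 1.24 on the log2 scale (SE 0.14, limma adjusted p = 2.13e-05), and MDH2, the cytosolic malate dehydrogenase, at 2409, 1685 and 2278 at 7 min, 3626 at 10 min and 5537 at 14 min (1.09). CIT1, ACO1 and IDH2, which lead from acetyl-CoA to 2-oxoglutarate, rose by 0.49, 0.49 and 0.53. In fatty acid oxidation and peroxisomes 22 of 43 genes were higher and 3 lower (14 and 2 with the culture as a block, 7 and 2 at 10 min alone, 0 and 2 at 10 min within BY013). PXA2, a peroxisomal importer, rose by 0.93, and POT1, the thiolase, was at least 2.06-fold higher (limma adjusted p = 8.35e-05).

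The genes for the cytochrome c isoforms, CYC7 and CYC1, went in opposite directions. CYC7 stood at 3869, 2652 and 3169.8 at 7 min, 6362 at 10 min and 8981 at 14 min (1.24), while CYC1, the major form on aerobic growth, stood at 4797, 4873 and 4757 at 7 min, 4225 at 10 min and 3254 at 14 min, with a change of −0.38 on the log2 scale (SE 0.05, limma adjusted p = 5.8e-05). In glycolysis 8 of 24 genes were higher, near the share of all transcripts, and 1 was lower, and the median was 0.031. Higher were HXK1 (0.67), a hexokinase for slow growth, GPM2 (0.80), a relative of phosphoglycerate mutase, and PFK26 (0.62), which makes the activator fructose-2,6-bisphosphate. In the pentose phosphate pathway 7 of 14 were higher and 5 lower (5 and 3 with the culture as a block, 2 and 1 at 10 min alone and also at 10 min within BY013). SOL4, a minor 6-phosphogluconolactonase, stood at 5200.4, 3598 and 4455 at 7 min, 8257 at 10 min and 11561 at 14 min (1.16), and NQM1, a transaldolase paralogue, rose by 0.93. RKI1, the only ribose-5-phosphate isomerase, stood at 3070.0, 3877 and 3482 at 7 min, 2048 at 10 min and 1081 at 14 min, a change of −1.22 on the log2 scale (SE 0.08, limma adjusted p = 6.6e-07). Among the hexose transporters HXT1, the low-affinity form, fell by 0.53, while HXT7, whose probes may share sequence with HXT6, rose by 0.84. CYC1 was chosen after its values had been seen.

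The remaining lists are given by their counts. Over all transcripts 30.3% were called higher and 21.0% lower in the main comparison, and the shares at 10 min are given above. A list with shares near these does not stand out from the other transcripts. Of 21 genes around phosphate use 8 were higher and 3 lower (5 and 4 with the culture as a block, 2 and 2 at 10 min alone, 1 and 1 at 10 min within BY013), with PHM8 (1.06) and BAS1, an activator of purine and histidine genes (−1.01), at the ends. Of 24 iron uptake genes 3 were higher and 9 lower (1 and 8 with the culture as a block, 0 and 2 at 10 min alone, 0 and 0 at 10 min within BY013), among them the permease gene FTR1 (−0.70). Ergosterol synthesis had 3 higher and 9 lower of 28 (1 and 3 at 10 min alone, 0 and 1 at 10 min within BY013), and the cell cycle start genes 3 and 3 of 21 (0 and 3, 0 and 1). FAR1, the inhibitor of the G1 cyclin kinase, stood at 2826, 3176 and 3095 at 7 min, 2093 at 10 min and 1768 at 14 min, with a change of −0.65 on the log2 scale (SE 0.07, limma adjusted p = 8.38e-06) and −0.55 within BY013. Of 10 histone genes 2 were higher. Among 20 arrestins and adaptors of ubiquitin ligases, which take permeases from the membrane, 11 were higher and 1 lower (2 and 1 at 10 min alone, 0 and 1 at 10 min within BY013). For 20 genes of one-carbon metabolism the counts were 1 and 11 (0 and 5, 0 and 1). For 12 of the retrograde response they were 7 and 2 (4 and 2, 1 and 0), for 24 hexose transporters and glucose sensors 11 and 2 (6 and 1, 2 and 0) and for 16 genes of pseudohyphal growth 4 and 6 (1 and 6, 1 and 1). In the Ehrlich pathway, by which amino acids are degraded to fusel alcohols, 7 of 17 were higher and 3 lower (2 and 0 at 10 min alone, 0 and 0 at 10 min within BY013), among them ARO9 (0.72) and BAT2 (0.49), both aminotransferases.

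Between 10 and 14 min, both within BY013, falls were larger than rises. Of the 81 transcripts (1.47%) that passed and differed by more than 2-fold, 76 (1.38%) fell. Among the largest falls were NOC2 (−2.01), NSR1 (−1.76), TRM11 (−1.72) and RRS1 (−1.65), all with an adjusted p of 0.0014 or less from limma. SSF1 and YGL188C-A passed as well, but their 14 min values were dim, so that the size of their falls is not known. RRS1, a 60S assembly factor, stood at 1006, 1398 and 1335 at 7 min, 544 at 10 min and 174 at 14 min. Among rises, GAC1, SPG4, YNL194C and UGA4, given above, came first, then GUD1, the guanine deaminase (1.00), and RTN2 (0.99). GUD1 stood at 689.7, 467 and 653 at 7 min, 1087 at 10 min and 2175 at 14 min.

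In a second comparison, with the mean of the values at 7 and 24 min, 672 transcripts (12.2%) differed at 10 and 14 min, 444 (8.08%) above and 228 (4.15%) below it. With the culture as a block 345 passed, 263 of them above, and after quantile normalization 944 passed, 521 of them above. As 10 and 14 min are nearer in time to 7 than to 24 min, a transcript that falls steadily lies above this mean as well. Against a straight line from 7 to 24 min in log2 intensity over time, a comparison chosen after the values had been seen, 1243 transcripts passed, 688 (12.5%) above and 555 (10.1%) below, and 350 of the 672 did so in the same direction. For some groups the result depended on the reference. Of 127 ribosomal protein genes 54 lay above the mean and 0 above the line, and for Gcn4-controlled genes these counts were 26 of 49 and 0, and for purine genes 14 of 23 and 1. The medians of these groups from the line were 0.036, 0.024 and −0.017. Ribosome assembly transcripts lay below the line, with 60 of 75 small subunit factors and 58 of 78 large subunit factors called below it and 1 of each above it. The Msn2 and Msn4 genes (31 of 36) and trehalose and glycogen genes (20 of 22) were called above it. The line starts from the mean of all cultures at 7 min, when BY013 was further along than the others. Such a lead would place falling lists lower and rising lists higher against the line. Its part in these calls was not tested, as no line within BY013 was fitted.

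In 113 (2.06%) transcripts both intermediate arrays lay above all 3 arrays at 7 min and all 3 at 24 min, here called highs. In 169 (3.07%) they lay below all of them, here called lows. Unchanged transcripts can meet this order through the spread between arrays alone, and their share was not measured. Neither count is therefore by itself a result about this phase. Of the highs and lows, 62 and 69 also passed against the mean. CIN5, a regulator of the salt stress response, stood at 3315, 2108 and 2976 at 7 min, 5011 at 10 min and 4499.8 at 14 min, and at 2438 ± 184 (SD, n = 3) at 24 min. It lay 0.88 above the mean of 7 and 24 min on the log2 scale (adjusted p = 0.00154 from limma). DAL1, the allantoinase, stood at 3905, 2653 and 3848 at 7 min, 5052 at 10 min and 5783 at 14 min and 3079 ± 336 (SD, n = 3) at 24 min (0.74), and MEP1, an ammonium permease, at 9895, 8129.9 and 9565 at 7 min, 11002 at 10 min and 11025 at 14 min and 5051 ± 555 (SD, n = 3) at 24 min (0.70). DAL1, MEP1 and YER053C-A (0.76) did not pass against 7 min within BY013. YPL247C (0.63) and YJR115W (0.66) complete the 6 largest highs.

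Lows in this phase included sulfur genes. MET8, given above, stood at 1211 ± 48.5 (SD, n = 3) at 24 min and −0.82 from the mean (adjusted p = 0.000194 from limma), and 13 of the 24 genes for sulfate assimilation and methionine were called below the mean and 18 below the line, with 0 above either. In BY013 the median of that list against the mean at 7 min was −0.038 in the 7 min array, −0.16 after 10 min, −0.28 after 14 min and −0.08 after 24 min. ATG41 stood at 1514 ± 83.1 (SD, n = 3) at 24 min (−0.64, a call lost without the 14 min array), TEA1, an activator of Ty1 elements, at 984, 1123 and 1065 at 7 min, 632 at 10 min and 565 at 14 min and 704 ± 44.6 (SD, n = 3) (−0.53), and FAR1 at 2404 ± 172 (SD, n = 3) (−0.49). SEO1, a permease of the allantoate family, was a low only against its later level, at 493, 483 and 493 at 7 min, 436 at 10 min and 459 at 14 min and 1186 ± 169 (SD, n = 3) at 24 min (−0.76), and it did not pass against 7 min. The unnamed gene YKL068W-A was similar (−0.73).

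**Figure D4:**
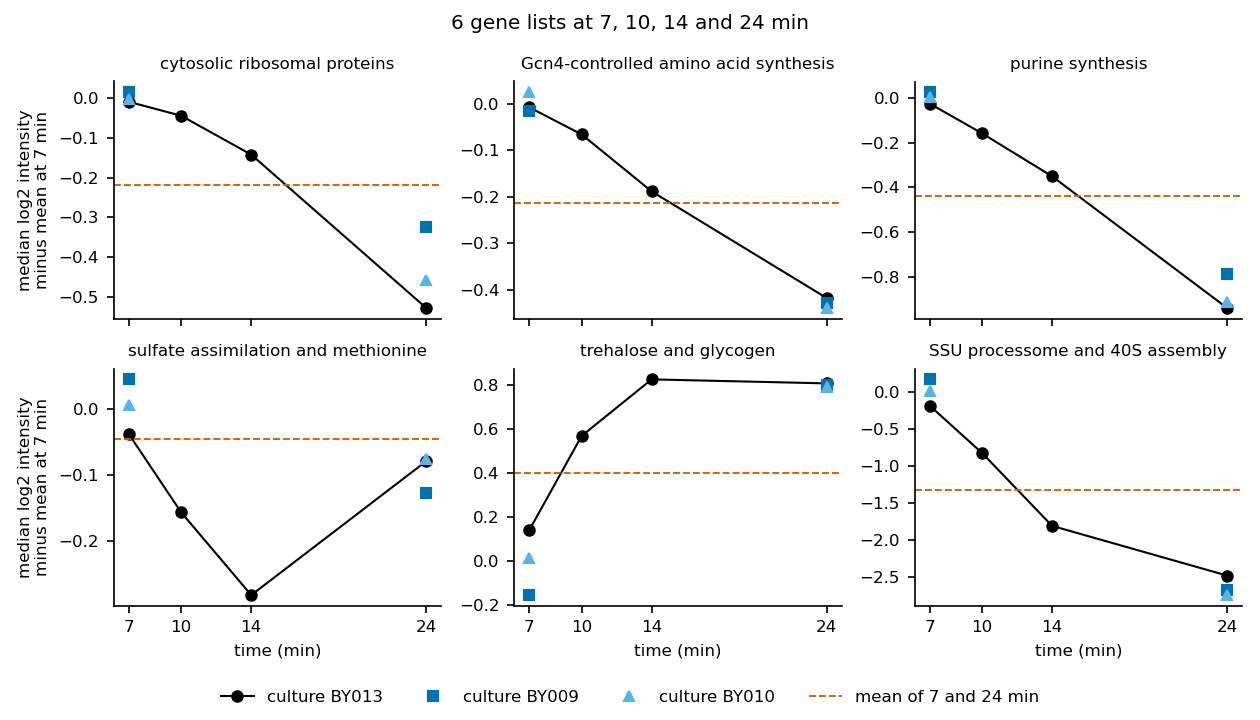
Median log2 intensity of 6 gene lists minus their mean at 7 min (y axes, each with its own scale) at 7, 10, 14 and 24 min (x axis), with 1 point per array, culture BY013 joined by a line and the mean of 7 and 24 min dashed. Sulfate assimilation and methionine dips to −0.28 at 14 min, trehalose and glycogen is at 0.83 by then, and cytosolic ribosomal proteins are at −0.14.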

How the data were processed

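The arrays were Affymetrix yeast arrays, hybridised with RNA of cells sampled along the downshift. The authors deposited 1 intensity per probe set and array, which was used as log2 without an offset. Per their methods, these came from perfect-match probes only, after RMA background correction, qspline normalization over the arrays and Li-Wong summarization, and R 2.10.0 with affy and RMA is named in the submitters' processing notes. Normalization over all arrays removes any change in total mRNA per cell, so that each change is relative to the other transcripts.

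Of 10928 probe sets, 5498 had a single S. cerevisiae gene (5449 genes), 1746 belonged to the other yeast, 1 had several genes and 3683 were not named in the annotation used here. Of the 5498, 103 may share probes within a family and 25 may cross-hybridise with unrelated genes. For the main comparisons, all 15 arrays entered 1 limma fit with a mean per time (limma 3.58.1, statmod 1.5.0, R 4.3.3). That fit used empirical Bayes moderation with an intensity trend, had 6 residual degrees of freedom and was tested on simulated data. Changes from the BY013 reference array alone came from a separate fit, in which that array had its own mean. Fewer residual degrees of freedom were left there. The culture as a block was a further fit, with culture added to the model. Replicates were separate cultures. The same culture was sampled over time, so culture pairs the arrays. Deviations of a culture at different times correlated at −0.27 to 0.19 over transcripts, and the consensus correlation within cultures was −0.0064.

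The genes and the 46 lists, written from general knowledge and corrected for misassigned members, were chosen with earlier results of these data known. Genes named were the 12 largest changes each way past the threshold with arrays that did not overlap and a brighter group above background, the 6 largest each way in the other comparisons, up to 4 per list and all members of the lists of regulators and of TORC1. Alternatives changed the normalization, offset, filter, moderation, block, probe sets per gene and arrays included. No sequence was used here.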

Additional observations from a re-analysis of the deposited data

How the results depend on the processing

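The count of 2824 changed transcripts stayed between 2216 and 3126 under quantile normalization, centring, an offset, a filter on dim probe sets, other moderation, 1 probe set per gene and the culture as a random or fixed block (replicate block, 2216). With only the 5 arrays in the fit it was 1307, 624 of them higher, where the fit has fewer arrays for the spread. Leaving out 1 array at a time gave 1250 (without 14 min) to 3031 (without 10 min). At 10 min alone the count of 1251 became 747 with the culture as a block and 478 within BY013, and leaving out a 7 min array gave 1080 to 1351. At 14 min alone, leaving out a 7 min array gave 2839 to 2963 and the block 2578. Within BY013 the count was 478 without 14 min and 2161 without 10 min. Against the mean of 7 and 24 min it was 345 with the block, 1243 with the straight line in its place and 461 to 898 when 1 array was left out. The cause of these shifts was not tested. The straight line, leaving out a 24 min array, the single times within BY013 and leaving out an array within BY013 were chosen after seeing the data.

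Of the single genes, those that changed sign had not passed. On the log2 scale these were, after quantile normalization, FHL1 0.10, HMO1 −0.002, HOT1 0.019, PDR1 −0.026, PPH21 −0.039, PPH22 −0.0083, SEC13 −0.040, TOR2 −0.003 and YAP7 0.046, and with the culture as a block KOG1 0.008, SCH9 0.0067 and YPK3 0.0007. When 1 array was left out, genes whose sign changed ranged as follows: FHL1 −0.043 to 0.021, HAC1 −0.0072 to 0.0054, KOG1 −0.096 to 0.043, MTC5 −0.069 to 0.0035, PDR1 −0.064 to 0.097, PPH21 −0.0032 to 0.052, RTC1 −0.046 to 0.0095, SCH9 −0.083 to 0.073, SEC13 −0.0053 to 0.032, SEH1 −0.033 to 0.030, TCO89 −0.0056 to 0.12, TIP41 −0.020 to 0.066, YAP1 −0.030 to 0.027 and YPK3 −0.076 to 0.072. Of 3179 values of 212 genes under the alternatives, 2994 kept direction and side of the threshold, 115 no longer passed and 34 newly passed. List medians changed sign for amino acid permeases, the pentose phosphate pathway and the Ehrlich pathway after quantile normalization, for histones after centring, for ribosomal gene regulators with the block, and for these regulators, the pentose phosphate pathway and the cell cycle start genes when 1 array was left out. Probe sets at or under the background level give only bounds, and 10 and 14 min have 1 array each from 1 culture, so that no spread between cultures was measured at those times.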
